A study of Mus musculus with 12 samples.

Results

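The skeletal muscle genes described here were 40 gene symbols chosen for their known function, without a threshold on any measured value. They were chosen with earlier results of these data known, and all 40 were found among the 38986 genes that the 12 teratoma libraries list. They comprised 5 myogenic factors, 2 myoblast fusion genes, 4 genes of the neuromuscular junction, 9 of the thick filament, 8 of the thin filament, 7 of the Z-disc, titin and desmin, the muscle creatine kinase gene Ckm and 4 calcium handling genes. A teratoma is a tumour in which transplanted pluripotent cells differentiate into a mixture of tissues. Each library measured poly(A) RNA from a teratoma, and whether the whole tumour or a piece was taken is not stated. R1 mouse embryonic stem (ES) cells carrying the pEZ-LV235 lentiviral vector with a CAG promoter, which is active in most cell types, were selected with puromycin and injected under the skin of 8-week-old male NOD-PrkdcEM1 mice, and the tumours used for RNA were collected at day 21. ET was the empty vector and served as the control. WT carried wild-type Dnmt3L, a partner of the de novo DNA methyltransferases that has no catalytic activity of its own, while K238R and K412R carried Dnmt3L with a lysine replaced by arginine. Each group had 3 libraries. The vector and the host strain were shared by all 4 groups, the host still has its own muscle, vessels and stroma, and a host cell's transcript cannot be told apart from that of a teratoma cell in these counts.

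Total counts per library were between 16957677 and 18546100, and values are given as CPM, the counts of a gene per 1000000 counts of its library, with the replicates of a group in the order of their numbers and the group in parentheses after them. The transcript of Dnmt3l was read in every library as a check of the labels. It stood at 2.22, 0.65 and 7.62 CPM (ET), at 165, 203 and 204 (WT) and at 38.9, 38.3 and 26.0 (K412R), but at 1.89, 1.11 and 0.54 (labelled K238R). The libraries labelled K238R were thus at the level of ET and are called by their label throughout. The abundant Gm26917 RNA held 7.47% to 13.9% of each library. The labels do not say which mice the replicates came from, so p-values measure the spread between these libraries.

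Skeletal muscle forms when progenitors switch on the basic helix-loop-helix factors Myf5 and MyoD, leave the cell cycle, express myogenin and fuse into multinucleated fibres. Fibres first build their sarcomeres with embryonic and perinatal myosin heavy chains and other developmental isoforms, which are later replaced by the adult fast or slow isoforms. Innervation clusters acetylcholine receptors at the junction, and the receptor's fetal gamma subunit is then replaced by the epsilon subunit.

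The promoter windows of 4 members are shown, 2 receptor subunits and an embryonic and an adult heavy chain, whose values in every library are given below. RefSeq promoter windows of 300 bases (250 before and 50 after the annotated start, build GRCm38.p6, whereas the submitters' processing notes name GRCm39) were found for 29 of the 40 members. MyoD-family factors bind E-boxes, CANNTG, and often the form CAGCTG, which is one of the sequences that CANNTG covers, and MEF2 factors bind an A and T rich site. In the lines below capitals mark CAGCTG and the MEF2 site, both of which were searched on both strands. Chrna1 lies at chr2:73580289-73580588 on the minus strand, Chrng at chr1:87205561-87205860 on the plus strand, Myh3 at chr11:67078050-67078349 on the plus strand and Myh4 at chr11:67237562-67237861 on the plus strand.
Chrna1: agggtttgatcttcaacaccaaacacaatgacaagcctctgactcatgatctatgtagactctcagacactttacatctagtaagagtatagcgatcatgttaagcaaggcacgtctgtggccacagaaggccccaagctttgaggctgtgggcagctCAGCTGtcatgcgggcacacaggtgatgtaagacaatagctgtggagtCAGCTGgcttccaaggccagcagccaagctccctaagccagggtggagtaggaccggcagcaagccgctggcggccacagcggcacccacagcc
Chrng: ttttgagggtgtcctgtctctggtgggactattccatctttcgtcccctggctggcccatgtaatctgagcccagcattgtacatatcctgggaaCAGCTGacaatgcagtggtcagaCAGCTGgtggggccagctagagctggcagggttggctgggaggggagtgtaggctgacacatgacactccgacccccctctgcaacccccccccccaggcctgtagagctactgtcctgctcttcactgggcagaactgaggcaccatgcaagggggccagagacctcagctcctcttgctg
Myh3: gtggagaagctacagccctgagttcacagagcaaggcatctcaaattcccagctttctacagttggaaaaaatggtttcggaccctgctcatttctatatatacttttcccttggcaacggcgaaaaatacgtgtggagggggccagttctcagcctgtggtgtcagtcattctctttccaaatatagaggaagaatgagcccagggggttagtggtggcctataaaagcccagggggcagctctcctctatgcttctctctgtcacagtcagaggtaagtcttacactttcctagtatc
Myh4: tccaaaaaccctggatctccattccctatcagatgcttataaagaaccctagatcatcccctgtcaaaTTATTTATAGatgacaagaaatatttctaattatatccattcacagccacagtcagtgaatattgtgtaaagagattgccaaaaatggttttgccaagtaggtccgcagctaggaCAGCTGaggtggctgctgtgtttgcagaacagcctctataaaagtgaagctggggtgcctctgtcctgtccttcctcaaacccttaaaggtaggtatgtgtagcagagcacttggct
In Chrna1 the CAGCTG matches started 92 and 44 bases before the transcription start, and in Chrng 155 and 132 bases before it. Myh4 held a CAGCTG 67 bases and a MEF2 site 182 bases before its start. The Myh3 window held neither, and had 1 E-box of another form. Over the members, CAGCTG was found in 16 of 32 windows (50%) against 16.3% of all 32851 windows in the table, the MEF2 site in 5 (15.6% against 1.86%) and any E-box in 27 (84.4% against 72.3%). The 5 with a MEF2 site were those of Myh1, Myh4, Myh8, Ttn and Xirp2. A match is a description of the letters only, and binding was not measured.

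Across the 12 libraries the members were at their highest in WT replicates 2 and 3 and at their lowest in replicate 3 of the libraries labelled K238R. WT replicate 2 was the highest library for 25 members, WT replicate 3 for 14 and replicate 1 of the libraries labelled K238R for Xirp2. Replicate 3 of the libraries labelled K238R was the lowest for 33, K412R replicate 2 for 4 and ET replicate 3 for 3. For 33 of the 40 members WT replicates 2 and 3 both lay above all 9 libraries of the other groups. WT replicate 1 did so for 0 members. It lay within the range of the 3 ET libraries for 32 and below all of them for 7 (Myh4, Mybpc2, Tnnt3, Neb, Xirp2, Ckm and Atp2a1), and was above them only for Casq1. The shares of all genes with these patterns were not computed, so the counts describe the members only.

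**Figure D1:**
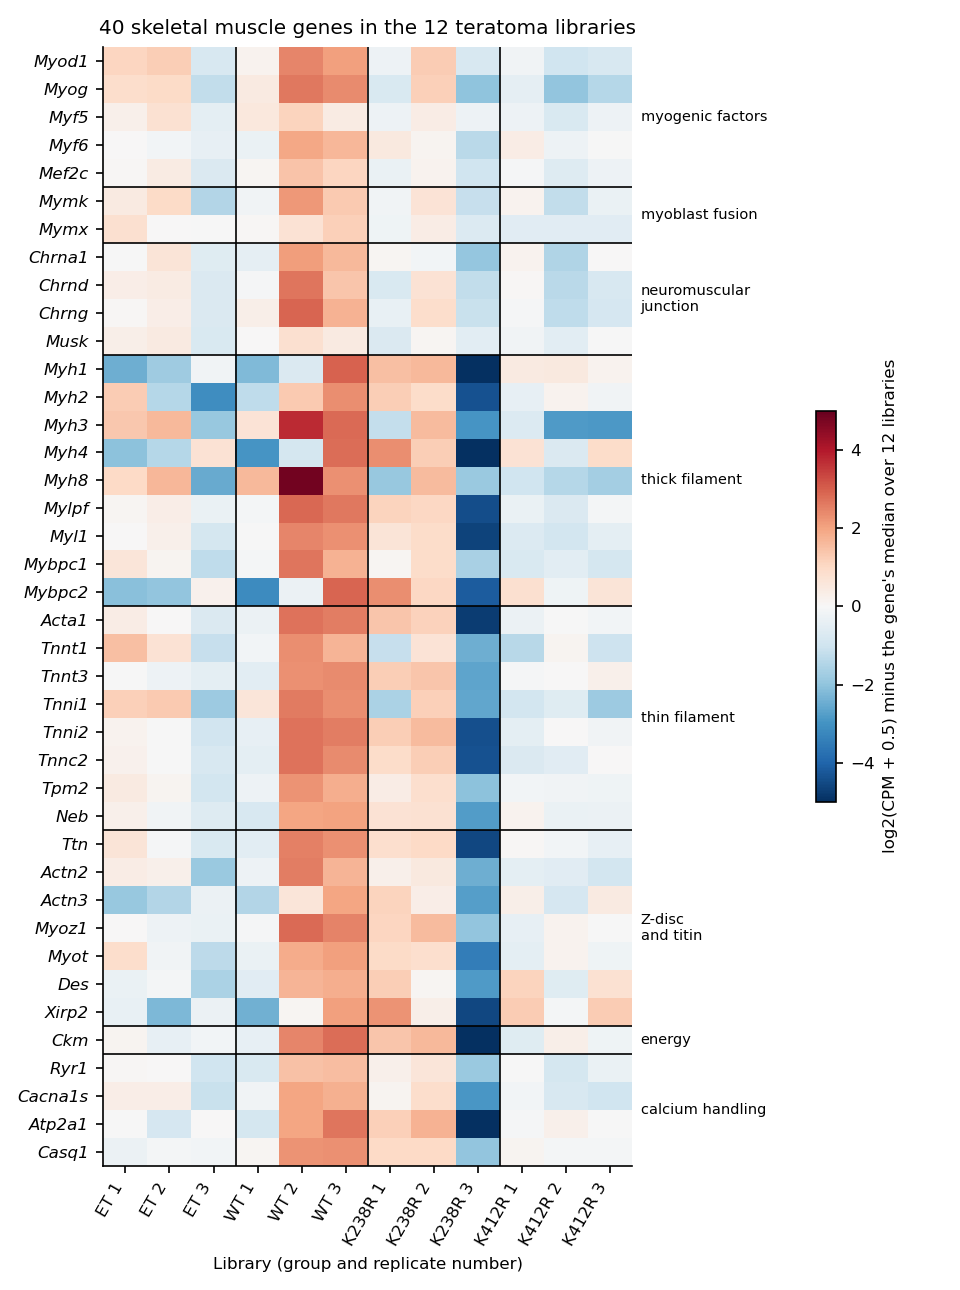
Each of the 40 skeletal muscle genes (rows, by class) in the 12 libraries (columns), coloured by log2(CPM + 0.5) minus the gene's own median over the 12 libraries. The columns of WT replicates 2 and 3 are red for nearly all genes, the column of replicate 3 of the libraries labelled K238R is blue for nearly all, and Myh1, Myh4 and Mybpc2 are pale in WT replicate 2 and red in WT replicate 3.

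Summed over the 40 members, the level was 1446, 1261 and 759 CPM (ET), 944, 6863 and 6050.0 (WT), 2408, 2529 and 122 (labelled K238R) and 1195, 950.4 and 1091 (K412R). The group means were 1155 ± 355 (SD, n = 3), 4619 ± 3209, 1686 ± 1356 and 1079 ± 123. The means of WT and of the libraries labelled K238R therefore joined libraries that differed by 7.27 and 20.7 times, while the 3 K412R libraries lay within 1.26 times of each other. The within-group SD of log2(CPM + 0.5) had a median of 1.35 over the members, from 0.44 for Myf5 to 2.82 for Myh4, against 0.23 over all 18405 genes tested, and it was above the 90th percentile of all genes for 37 members. In RNA from a mixture of tissues, fewer muscle cells and less muscle RNA per cell cannot be told apart.

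**Figure D2:**
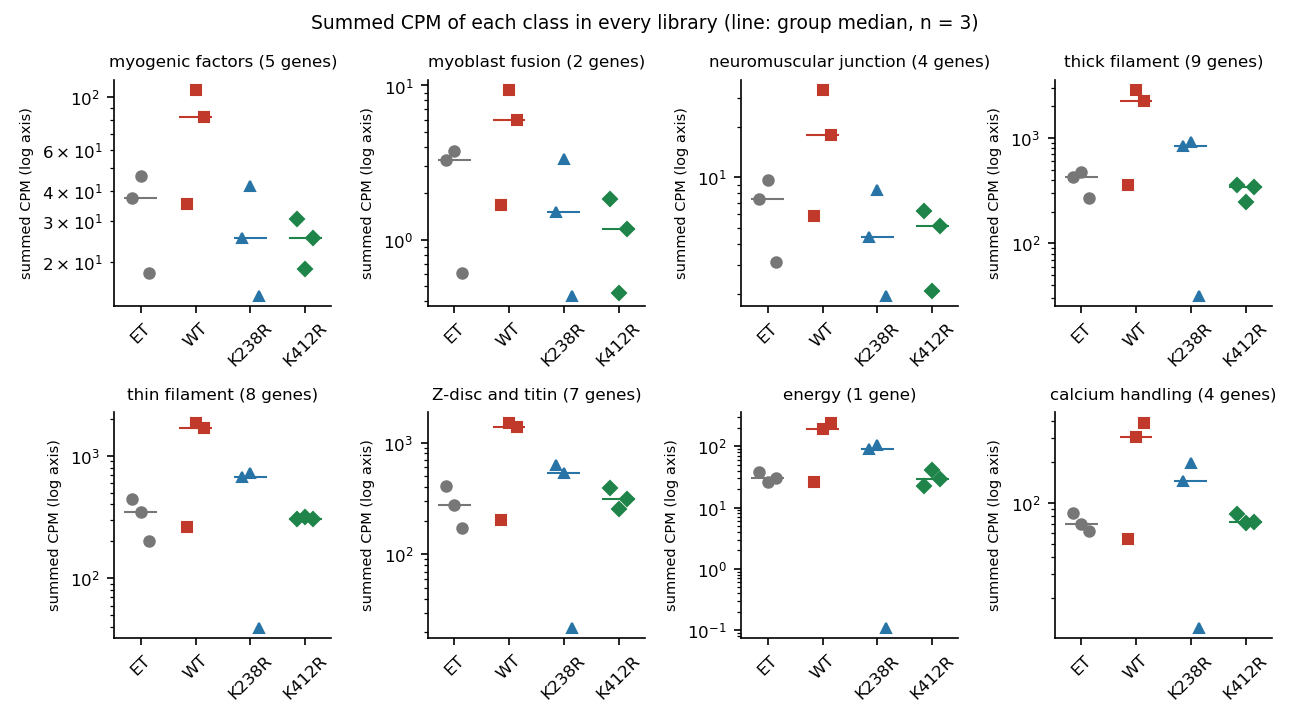
Summed CPM (log axis) of each class of skeletal muscle genes in every library, by group, with a line at the median of the 3 libraries. In every panel WT replicates 2 and 3 are the 2 highest points and replicate 3 of the libraries labelled K238R is the lowest, and WT replicate 1 lies within the ET range or, for energy and calcium handling, just below it.

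The myogenic factors are the transcription factors that commit and differentiate myoblasts. Myod1, the determination factor MyoD, stood at 2.50, 2.89 and 0.33 CPM (ET), 1.12, 7.41 and 5.48 (WT), 0.70, 3.0 and 0.33 (labelled K238R) and 0.78, 0.23 and 0.34 (K412R). Myog, myogenin, which drives terminal differentiation, stood at 4.83, 5.07 and 0.72 CPM (ET), 3.43, 17.6 and 14.3 (WT), 1.19, 6.17 and 0.22 (labelled K238R) and 1.62, 0.23 and 0.56 (K412R). Both genes overlapped between WT and ET because of WT replicate 1, and both were lower in all 3 K412R libraries than in any WT library.
Myf5, the earliest of these factors in the embryo, was low everywhere. Its CPM was 0.51, 0.94 and 0.11 (ET), 0.73, 1.34 and 0.63 (WT), 0.22, 0.61 and 0.22 (labelled K238R) and 0.22, 0 and 0.22 (K412R), where it rested on 4, 0 and 4 counts. Myf6, which encodes MRF4 and is used in late differentiation and in adult fibres, was at 0.80, 0.65 and 0.44 CPM (ET) and at 0.51, 4.35 and 3.54 (WT). It was at 1.29, 0.89 and 0 CPM (labelled K238R) and at 1.11, 0.57 and 0.73 (K412R), so that, unlike Myod1 and Myog, its K412R libraries lay within or above the ET range. Mef2c, a cofactor of the MyoD family that other tissues also express, ran from 13.7 to 76.3 CPM.

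The fusion genes encode the membrane proteins that join myoblasts. Mymk, myomaker, was at 2.22, 3.36 and 0.22 CPM (ET), 1.24, 8.31 and 4.39 (WT), 1.24, 2.67 and 0.38 (labelled K238R) and 1.73, 0.34 and 1.07 (K412R). Mymx, myomerger, was at 1.08, 0.41 and 0.39 CPM (ET), 0.45, 1.0 and 1.54 (WT), 0.27, 0.67 and 0.05 (labelled K238R) and 0.11, 0.11 and 0.11 (K412R). The K412R values of Mymx were 2 counts in each library, against 19, 7 and 7 counts in ET and 8, 18 and 27 in WT, and the K412R libraries lay below all ET and WT libraries.

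The genes of the neuromuscular junction encode receptor subunits and the kinase Musk that clusters them. Chrna1, the alpha subunit, was at 1.99, 3.48 and 1.17 CPM (ET), 1.35, 10.4 and 7.25 (WT), 2.21, 1.83 and 0.16 (labelled K238R) and 2.34, 0.40 and 2.08 (K412R). Chrng, the fetal gamma subunit whose promoter window is printed above beside that of Chrna1, was at 0.74, 1.0 and 0.22 CPM (ET), 0.96, 8.59 and 3.48 (WT), 0.43, 1.72 and 0.05 (labelled K238R) and 0.67, 0 and 0.17 (K412R). WT replicate 2 held 154 counts of Chrng and WT replicate 3 held 61, while no other library had more than 31. Chrnd, the delta subunit, ran from 0.11 to 9.53 CPM and Musk from 1.28 to 4.68.

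The thick filament is built of myosin heavy chains, their light chains and myosin binding protein C. Myh3, the embryonic heavy chain, stood at 116, 138 and 11.68 CPM (ET), 71.8, 599 and 321 (WT), 18.98, 135 and 5.37 (labelled K238R) and 27.5, 5.82 and 5.61 (K412R). Myh8, the perinatal heavy chain, stood at 97.0, 156 and 8.17 CPM (ET), 151, 1400.4 and 237.7 (WT), 12.8, 147 and 12.9 (labelled K238R) and 24.3, 17.6 and 14.5 (K412R), whose 3 libraries thus lay below every WT library. The highest Myh8 value, that of WT replicate 2, was 5.89 times that of WT replicate 3.
The adult fast heavy chains took another order. Myh1, the IIx chain, was at 10.2, 16.5 and 50.1 CPM (ET), 11.9, 34.2 and 440 (WT), 162, 178 and 0.49 (labelled K238R) and 78.9, 80.2 and 65.3 (K412R). Myh4, the IIb chain of the fastest fibres, was at 17.4, 26.5 and 122 CPM (ET), 9.05, 39.6 and 512 (WT), 363, 172 and 0.65 (labelled K238R) and 122, 43.4 and 138 (K412R). Both were 12.9 times higher in WT replicate 3 than in WT replicate 2, and ET replicate 3, the lowest ET library for 32 members, was the highest for Myh1 and Myh4.
Myh2, the IIa chain, was at 56.2, 8.26 and 2.22 CPM (ET), 9.28, 57.8 and 116 (WT), 54.3, 43.7 and 0.65 (labelled K238R) and 16.99, 26.1 and 20.2 (K412R). In ET its highest library was replicate 1 and not replicate 3. These 5 heavy chain genes are related neighbours, in the order Myh3, Myh2, Myh1, Myh4 and Myh8 in the RefSeq table. Salmon divides the reads that they share, so the split between them is less certain than their sum. How many reads they share was not measured.
Mylpf, the fast regulatory light chain, was at 43.5, 52.0 and 33.0 CPM (ET), 39.0, 303 and 262 (WT), 90.9, 84.3 and 1.41 (labelled K238R) and 32.6, 24.5 and 38.5 (K412R). The alkali light chain gene Myl1 ran from 1.09 to 212 CPM and the slow-type binding protein gene Mybpc1 from 9.23 to 192. Mybpc2, the fast-type binding protein C, was highest in WT replicate 3 at 74.8 CPM and stood at 7.53 CPM in WT replicate 2.

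The thin filament holds actin, tropomyosin, the troponins and nebulin. Acta1, skeletal alpha-actin, was at 134, 106 and 63.8 CPM (ET), 85.7, 694 and 624 (WT), 271, 230.4 and 3.42 (labelled K238R) and 84.0, 103 and 94.4 (K412R). Here WT replicates 2 and 3 differed by only 1.11 times, in contrast to the heavy chains. Neb, nebulin, which sets the length of the filament, was at 91.1, 67.2 and 48.1 CPM (ET), 43.1, 296 and 304 (WT), 125, 129 and 10.5 (labelled K238R) and 84.8, 60.7 and 62.3 (K412R).
Tnni2, the fast troponin I, was at 24.5, 21.4 and 11.01 CPM (ET), 16.4, 147 and 132 (WT), 51.2, 65.3 and 0.54 (labelled K238R) and 15.4, 22.1 and 19.2 (K412R). Its slow counterpart Tnni1, which developing fibres also use, was at 13.4, 14.4 and 1.22 CPM (ET), 8.71, 35.6 and 29.7 (WT), 1.51, 13.3 and 0.49 (labelled K238R) and 2.67, 3.45 and 1.23 (K412R). All 3 K412R libraries lay below all WT libraries for Tnni1, whereas for Tnni2 they overlapped WT replicate 1. Tnnt3, the fast troponin T, ran from 6.41 to 219 CPM, the slow Tnnt1 from 1.09 to 42.1, the fast troponin C gene Tnnc2 from 0.33 to 109 and the tropomyosin gene Tpm2 from 16.7 to 329.6.

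Ttn, titin, the elastic protein that spans each side of the sarcomere, was at 301, 182 and 114 CPM (ET), 131, 1092 and 936 (WT), 345, 384 and 7.76 (labelled K238R) and 201, 172 and 144 (K412R). Actn3, the alpha-actinin of fast fibres, was at 5.51, 7.61 and 18.0 CPM (ET), 7.70, 34.2 and 87.5 (WT), 48.0, 28.1 and 2.88 (labelled K238R) and 27.2, 12.3 and 30.2 (K412R), and so had its highest ET value in replicate 3, as Myh1 and Myh4 had. Des, desmin, the intermediate filament protein of all muscle types, was at 34.3, 41.0 and 14.2 CPM (ET), 29.2, 144 and 154 (WT), 102, 46.0 and 5.65 (labelled K238R) and 93.8, 28.0 and 73.0 (K412R).
Desmin thus overlapped between all 4 groups. Actn2, the other sarcomeric alpha-actinin, ran from 5.32 to 186 CPM, the Z-disc protein genes Myoz1 and Myot from 0 to 13.3 and from 0.11 to 27.04, and Xirp2, which encodes an actin-binding protein of the fibre's attachment sites, from 0.22 to 79.0.

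Ckm, the muscle creatine kinase that buffers ATP, was at 38.3, 26.0 and 30.8 CPM (ET), 25.8, 191 and 244 (WT), 89.5, 105 and 0.11 (labelled K238R) and 22.2, 41.6 and 29.5 (K412R). The lowest value was 2 counts. Among the calcium handling genes, Ryr1, the release channel of the sarcoplasmic reticulum, was at 35.1, 33.8 and 16.3 CPM (ET), 19.5, 93.7 and 99.5 (WT), 39.7, 50.8 and 8.85 (labelled K238R) and 33.1, 17.9 and 26.2 (K412R).
Atp2a1, the fast calcium pump SERCA1, was at 32.6, 18.1 and 33.3 CPM (ET), 17.7, 131 and 212 (WT), 76.6, 112 and 0.38 (labelled K238R) and 31.9, 40.1 and 32.9 (K412R). Casq1, the calcium store calsequestrin, was at 8.76, 9.97 and 9.73 CPM (ET), 11.4, 52.5 and 54.9 (WT), 21.9, 21.8 and 2.39 (labelled K238R) and 11.9, 9.89 and 10.1 (K412R). No other member had its ET libraries all below its WT libraries. Cacna1s, the voltage sensor that couples excitation to Ryr1, ran from 0.43 to 27.1 CPM.

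The comparison of WT with ET asks what added Dnmt3L changed in the teratomas. All 40 members had a positive log2 fold change, where 49.2% of all genes tested did, and 36 were at least 2-fold higher, against 4.81% of all genes. The median over the members was 1.91, against -0.01 over all genes, and the range was 0.47 for Musk to 2.82 for Myh8. No member passed an adjusted p under 0.05 in the quasi-likelihood test of edgeR (Benjamini-Hochberg adjustment), a threshold that 0.00543% of genes passed upward and 0.0435% downward. The lowest adjusted p was 0.113, for Casq1 (log2 fold change 2.10, SE 0.69). At an unadjusted p under 0.05 there were 10 members against 14.0% of all genes, and with DESeq2 0 of the 38 to which it gave an adjusted p passed, against 5.39% of all genes upward and 6.18% downward.
The study called genes at 2-fold or more with a p under 0.05, used DESeq2 and did not say whether that p was adjusted. All 10 also met this 2-fold criterion with the unadjusted p of edgeR, which 3.26% of all genes met upward. They were Myf6 (log2 fold change 2.18, SE 0.88) and Mef2c (1.04, SE 0.39) of the myogenic factors, Chrng (2.76, SE 1.04) of the junction, Myh8 (2.82, SE 1.26) and Mybpc1 (1.88, SE 0.74) of the thick filament, Tnnt3 and Tpm2 of the thin filament, Myoz1 (2.81, SE 1.01) and Actn2 of the Z-disc, and Casq1. Neither fusion gene was among them. Class medians ran from 1.006 for the fusion genes to 2.11 for the thick filament, apart from Ckm alone at 2.32. Only Casq1 did not overlap between the groups (9.41% of all genes were higher without overlap). By the 2-fold criterion the count was 26 without WT replicate 1 or without replicate 3 of the libraries labelled K238R. The latter enter the shared estimate of the spread. The count was 5 without WT replicate 3, 2 without ET replicate 2 and 1 without WT replicate 2 or without ET replicate 3. At the adjusted threshold it was 2, Casq1 and Mef2c, without WT replicate 1. The shares of all genes that passed with a library left out were not computed, here and below. The log2 fold changes of Myh1, Myh4 and Mybpc2 rested on WT replicate 3, without which they were -0.15, -1.18 and -0.28.

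**Figure D3:**
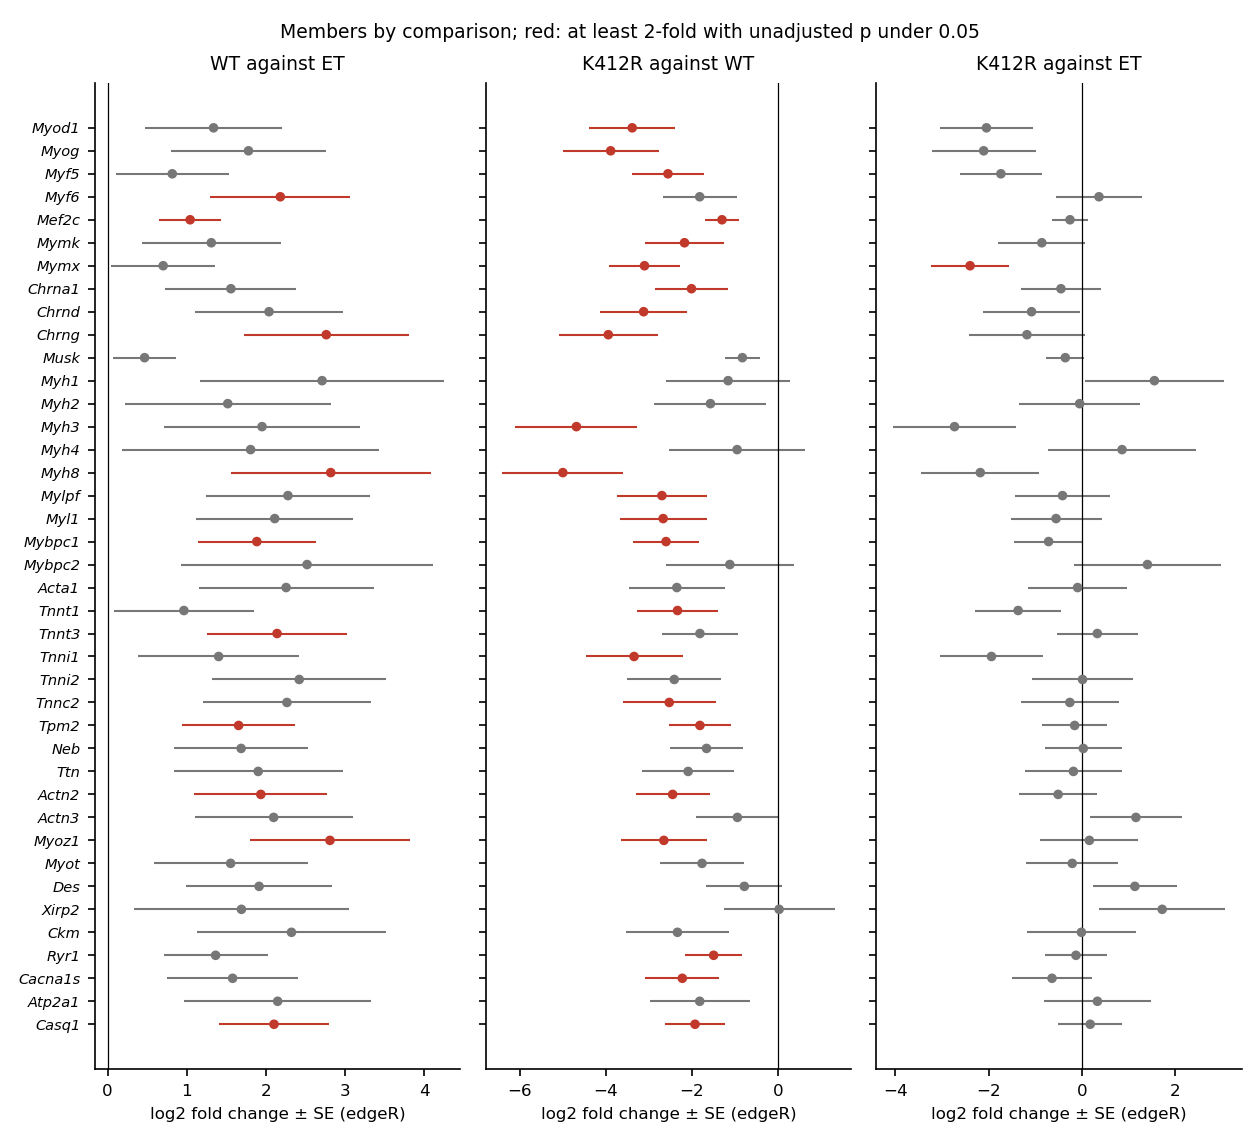
Log2 fold change with its standard error for each member in 3 comparisons from the edgeR fit of all 12 libraries, with members that were at least 2-fold different at an unadjusted p under 0.05 in red. All points are right of 0 for WT against ET, all but Xirp2 are left of 0 for K412R against WT, and in K412R against ET Mymx alone is red.

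The comparison of K412R with WT set Dnmt3L with the exchanged lysine beside wild-type Dnmt3L. The Dnmt3l transcript was also lower in K412R, at 26.0 to 38.9 against 165 to 204 CPM, and the exchange and the transcript level cannot be told apart here. The members' median log2 fold change was -2.20 (0.01 over all genes), with 39 of 40 negative against 48.8% of all genes. Values ran from -5.0 for Myh8 to 0.02 for Xirp2, whose sign turned in other settings. No member passed the adjusted threshold with edgeR, which 1.34% of genes passed upward and 0.695% downward, and the lowest adjusted p was 0.0688, for Mymx (log2 fold change -3.10, SE 0.81). At an unadjusted p under 0.05 there were 23 members, against 12.5% of all genes, and all 23 met the 2-fold criterion, which 3.36% met downward. DESeq2 called 9 of 38 (5.17% of all genes), namely Myod1, Myog, Mef2c, Chrnd, Chrng, Myh3, Myh8, Mybpc1 and Tnni1.
The members that met the 2-fold criterion were 4 of 5 myogenic factors, both fusion genes, 3 of 4 junction genes, 5 of 9 thick filament genes, 4 of 8 thin filament genes, 2 of 7 Z-disc and titin genes and 3 of 4 calcium handling genes. The values were -3.39 (SE 0.99) for Myod1, -3.89 (SE 1.12) for Myog, -3.94 (SE 1.15) for Chrng, -4.69 (SE 1.42) for Myh3 and -3.35 (SE 1.13) for Tnni1. Genes of fast fibres fell on both sides of the criterion, and differences between them were not tested. Mylpf (-2.70, SE 1.05) and Tnnc2 (-2.53, SE 1.08) met the criterion, whereas Tnni2 (-2.41, SE 1.10), Myh4 (-0.95, SE 1.58), Myh1 (-1.16, SE 1.45) and Actn3 (-0.94, SE 0.95) did not. Tnnc2 and Tnni2 lay close to each other, with unadjusted p of 0.0403 and 0.0522 in edgeR. Without WT replicate 3, Myh4, Myh1 and Actn3 were at 2.03, 1.70 and 0.13. For 14 members all 3 K412R libraries lay below all 3 WT libraries, against 16.6% of all genes, and these were Myod1, Myog, Myf5, Mef2c, Mymx, Chrng, Musk, Myh3, Myh8, Mylpf, Myl1, Mybpc1, Tnni1 and Actn2. Without WT replicate 1, 7 members passed the adjusted threshold, and 1 did without ET replicate 2 or without replicate 3 of the libraries labelled K238R. The 2-fold count was 10 without WT replicate 2, 12 without WT replicate 3 or K412R replicate 3 and 15 without K412R replicate 2.

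For the libraries labelled K238R against WT the median was -1.53 (0.00 over all genes) and 39 of 40 were negative, against 49.9% of all genes, with Xirp2 at 0.09. The range was -3.40 (SE 1.30) for Myh8 to 0.09. No member passed the adjusted threshold with edgeR, against 0.120% of all genes upward and 0.103% downward, and the lowest adjusted p was 0.136, for Mef2c (log2 fold change -1.34, SE 0.39), which was also the 1 call of DESeq2 among 40 members (2.41% of all genes). At an unadjusted p under 0.05 there were 12 members (9.61% of all genes), of which 11 met the 2-fold criterion against 3.55%. These were Myog, Myf6, Mef2c, Mymx, Chrna1, Chrnd, Chrng, Myh8, Mybpc1, Tnnt1 and Actn2, so that 3 of the 4 junction genes were among them and none of the calcium handling genes. Myf5 and Myh8 alone had no overlap between the groups, against 11.3% of all genes.
The group held its own extremes. For 36 members replicate 3 lay below all ET libraries, while for 20 members replicates 1 and 2 both lay above all of them. The shares of all genes with these patterns were not computed. The 2-fold count was 23 without WT replicate 1, 18 without replicate 2 of the libraries labelled K238R, 7 without K412R replicate 3, 6 without ET replicate 2, 4 without WT replicate 3, 3 without replicate 1 of the libraries labelled K238R, and 1 without their replicate 3 or without WT replicate 2.

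Against ET, the libraries labelled K238R had a median of 0.26 over the members (-0.02 over all genes), with 27 positive (46.4% of all genes) and 13 negative (53.6%). With edgeR 0 members passed the adjusted threshold, which no gene passed, 0 had an unadjusted p under 0.05 (2.52% of all genes upward and 3.09% downward), and DESeq2 called 0 of 40 (0.0163% and 0.0598%). The 2-fold criterion was met by 0 members (0.310% of all genes upward and 0.641% downward), by 9 without replicate 3 of the libraries labelled K238R and by 3 without their replicate 2. K412R had a median of -0.24 (-0.02 over all genes), with 13 positive (46.4% of all genes) and 27 negative (53.5%), and with edgeR 0 members passed the adjusted threshold, which no gene passed. Mymx alone had an unadjusted p under 0.05 (4.38% of all genes upward and 3.53% downward) and met the 2-fold criterion (0.706% and 0.864%), with a log2 fold change of -2.40 (SE 0.84, adjusted p = 0.547 with edgeR). DESeq2 called 0 of 38 (0.371% of all genes upward and 0.153% downward). Without ET replicate 1 the count was 0, without replicate 2 of the libraries labelled K238R it was 5, without ET replicate 3 it was 4, without K412R replicate 1 it was 3, and without WT replicate 1 or replicate 3 of the libraries labelled K238R it was 2.
No member named next passed a threshold in K412R against ET, and the difference between classes was not tested. The log2 fold changes were -2.05 (SE 1.01) for Myod1, -2.11 (SE 1.11) for Myog, -2.74 (SE 1.32) for Myh3, -2.18 (SE 1.26) for Myh8 and -1.94 (SE 1.11) for Tnni1, but 1.55 (SE 1.49) for Myh1, 1.71 (SE 1.36) for Xirp2, 1.40 (SE 1.57) for Mybpc2, 1.15 (SE 0.98) for Actn3 and 1.13 (SE 0.90) for Des. The class medians were -1.74 for the myogenic factors and -1.63 for the fusion genes, against -0.13 for the thin filament and 0.02 for calcium handling. In CPM, Myh1 and Xirp2 were higher in all 3 K412R than in all 3 ET libraries (5.01% of all genes were), and Mymx was lower (5.74% were). Because the comparisons share WT or ET libraries, their values are not independent of each other.

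Levels of different heavy chains were set beside each other as CPM per kilobase of transcript, a scale on which genes can be compared. The summed level of the fetal chains Myh3 and Myh8 was 34.9, 48.2 and 3.26 (ET), 36.4, 327 and 91.9 (WT), 5.23, 46.3 and 2.99 (labelled K238R) and 8.52, 3.83 and 3.29 (K412R). The summed level of the adult chains Myh1, Myh2 and Myh4 was 13.8, 8.46 and 28.8 (ET), 4.99, 21.7 and 176 (WT), 95.8, 65.1 and 0.30 (labelled K238R) and 36.0, 24.7 and 37.1 (K412R). The adult chains made up 28.3%, 14.9% and 89.8% of the sum of all 5 (ET), 12.0%, 6.22% and 65.8% (WT), 94.8%, 58.4% and 8.99% (labelled K238R) and 80.9%, 86.6% and 91.9% (K412R).
The make-up of these 5 chains was therefore mixed within ET, WT and the libraries labelled K238R, and it was mostly adult fast in all 3 K412R libraries, at 86.4% ± 5.49 (SD, n = 3). The slow heavy chain Myh7 is not in this sum. It ran from 1.18 to 11.1 CPM per kilobase, and at 5.54 in K412R replicate 2 it was above the fetal sum of that library. ET replicate 3 and replicate 1 of the libraries labelled K238R had a make-up like that of K412R. WT replicates 2 and 3, whose 40 members summed to 6863 and 6050.0 CPM, differed in this respect, since Myh8 gave 65.3% of the 5 chains in WT replicate 2 and 14.4% in WT replicate 3, where Myh4 led with 31.7%. Replicate 3 of the libraries labelled K238R had a fetal make-up with little of either kind, where Myh1, Myh2 and Myh4 rested on 9, 12 and 12 counts.

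**Figure D4:**
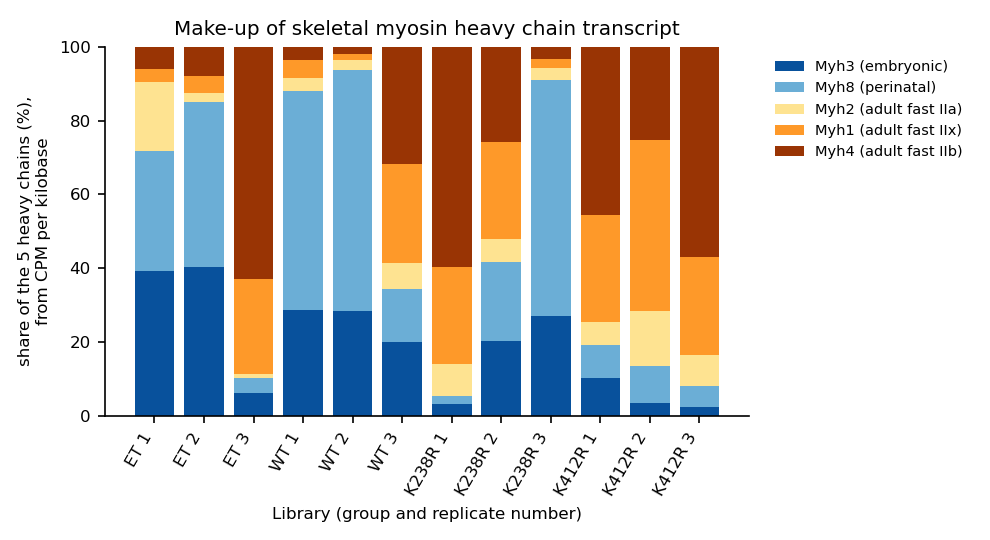
Share of each of the 5 skeletal myosin heavy chains in their sum, as % of CPM per kilobase, in the 12 libraries. Blue parts are the embryonic and perinatal chains and yellow to brown parts the adult fast chains. The adult part is the larger in all 3 K412R libraries (80.9% to 91.9%), in ET replicate 3, in WT replicate 3 and in replicates 1 and 2 of the libraries labelled K238R.

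4 other pairs of a developmental or slow isoform and an adult one were compared on the same scale. Tnni1 made up 26.7%, 31.0% and 6.91% of the troponin I sum of Tnni1 and Tnni2 (ET), 26.2%, 13.9% and 13.1% (WT), 1.93%, 12.0% and 37.5% (labelled K238R) and 10.4%, 9.46% and 4.12% (K412R). Actc1, the cardiac actin that fetal skeletal muscle also uses, made up 27.7%, 37.3% and 9.45% of the sum of Actc1 and Acta1 (ET), 29.4%, 29.4% and 20.5% (WT), 3.74%, 24.0% and 17.9% (labelled K238R) and 15.9%, 2.01% and 3.71% (K412R). Tnnt1, the slow troponin T, made up 36.6%, 28.2% and 10.2% of the sum of Tnnt1 and Tnnt3 (ET), 20.1%, 17.1% and 11.2% (WT), 3.26%, 10.9% and 14.7% (labelled K238R) and 6.52%, 17.6% and 6.99% (K412R). In these 3 pairs ET replicate 3 had the lowest share of the ET libraries and replicate 1 the lowest of the libraries labelled K238R, and these libraries had the largest adult heavy chain share of their groups. The same held for WT replicate 3. K412R did not follow, since its replicate 3 had the largest adult share but was lowest only for Tnni1, with Actc1 lowest in replicate 2 and Tnnt1 in replicate 1. The receptor pair differed in part. Chrng made up 100.0%, 62.2% and 36.8% of the sum of Chrng and Chrne (ET), 76.7%, 93.7% and 89.9% (WT), 82.3%, 85.7% and 36.8% (labelled K238R) and 87.5%, 0% and 36.8% (K412R), so that replicate 3 and not replicate 1 was lowest of the libraries labelled K238R. These receptor shares rested on few counts, 2 in that library and 4 to 13 in the K412R libraries.

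**Figure D5:**
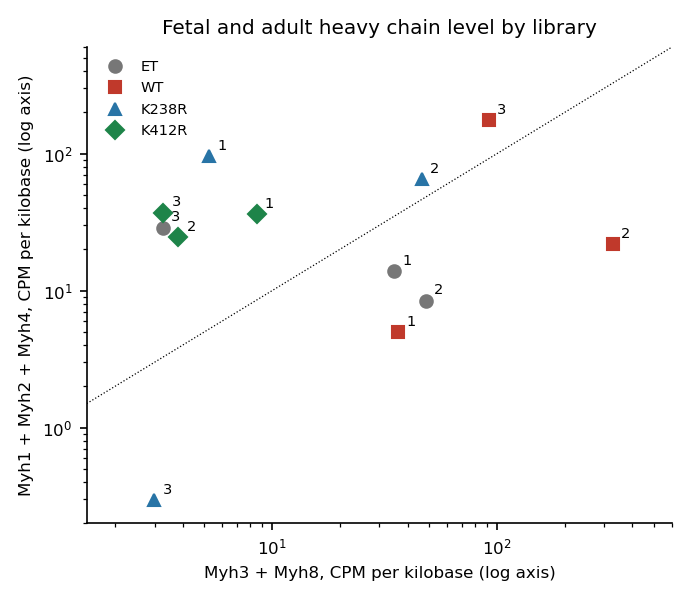
Summed level of the adult fast heavy chains against that of the fetal heavy chains, both as CPM per kilobase on log axes, with a point for each library numbered by replicate and a dotted line where both are equal. The 3 K412R libraries and ET replicate 3 lie close together above the line, WT replicate 2 lies far to the right below it and replicate 3 of the libraries labelled K238R lies at the bottom.

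Another 48 genes of the muscle pathway that are not members were looked up, of which 47 could be tested. In WT against ET, 0 passed the adjusted threshold with edgeR, 14 met the 2-fold criterion upward (3.26% of all genes did) and 0 downward (2.76%), and the median log2 fold change was 1.47 (-0.01 over all genes). In K412R against WT, 0 met it upward and 23 downward (3.36% of all genes), with a median of -1.63 (0.01 over all genes). For the libraries labelled K238R against WT 0 did upward and 8 downward (3.55% of all genes), with a median of -1.24 (0.00 over all genes). The 3 with the largest positive log2 fold change in WT against ET were Pgam2, the muscle phosphoglycerate mutase (2.40, SE 0.91), Pygm, the muscle glycogen phosphorylase (2.32, SE 0.80), and Jsrp1, a protein of the triad where the reticulum meets the cell membrane (2.25, SE 0.84), and all 3 were higher in WT replicates 2 and 3 than in any other library. The 3 with the lowest were Myl3 (-0.90, SE 1.13) and Myl2 (-0.69, SE 1.45), the light chains of slow fibres and of the heart's ventricles, and Eya1, a cofactor that acts in premyogenic cells (-0.22, SE 0.18).
Myl2 and Myl3 stood at 11.3 and 13.1 CPM in ET replicate 1 and at 6.73 and 4.69 in K412R replicate 2, and at most at 3.82 in the other 10 libraries. The same ET library had the highest value of Myh7, the slow heavy chain (68.8 CPM), and, within ET, the highest of Myh2 and Tnnt1. Of the progenitor genes, Pax7, the factor of muscle stem cells, was at 2.79, 3.77 and 0.61 CPM (ET), 2.19, 5.52 and 6.05 (WT), 0.43, 4.50 and 1.36 (labelled K238R) and 1.84, 0.34 and 0.39 (K412R). It overlapped between WT and ET but not between WT and K412R. Pax3, which acts upstream in the embryo, was between 4.33 and 10.7 CPM in all 12 libraries.

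Markers of other muscle types were read in the same libraries. The skeletal list of 10 genes, all but 1 of them with a count in every library, summed to 223 to 395 CPM (ET), 249 to 1829 (WT), 31.7 to 724 (labelled K238R) and 291 to 303 (K412R). All of its genes are members, so these sums restate values described above. The cardiac list of 12 genes, 9 of them with a count in every library, summed to 82.1 to 118, 77.2 to 126, 80.4 to 120 and 61.8 to 85.4 CPM. The list was uneven. Nkx2-5, Myl7, Nppa and Mybpc3 were at most 0.33, 0.43, 0.79 and 0.23 CPM in any library, with Nkx2-5 at 0 in 5 libraries, and Tbx5 and Hand2 at most 1.01 and 2.66 CPM. Apart from Tnnt2, the others were present in every library, Myh6, the heavy chain of the atria, at 5.01 to 20.0 CPM, Tnni3, the cardiac troponin I, at 5.25 to 10.1 CPM, the transcription factors Gata4 and Tbx20 at 2.01 to 10.8 and 1.71 to 39.5 CPM and Ryr2, the cardiac calcium release channel, at 19.1 to 71.7 CPM. Tnnt2, the cardiac troponin T that fetal skeletal muscle also makes, was at 12.0, 19.6 and 1.56 CPM (ET), 9.56, 38.3 and 28.4 (WT), 3.77, 16.3 and 1.09 (labelled K238R) and 3.34, 0.68 and 2.02 (K412R), and so was highest in the 2 libraries where the members were highest.
The smooth muscle list of 8 genes summed to 139 to 233 CPM (ET), 184 to 205 (WT), 140 to 162 (labelled K238R) and 149 to 172 (K412R). A list of 6 genes of adult fast fibres, such as the muscle of the host holds, of which 5 are members, summed to 72.9 to 191, 57.8 to 949, 6.79 to 539 and 116 to 214 CPM. The gene of that list that is not a member, Pvalb, the calcium buffer of fast fibres, was at 39.8 CPM in WT replicate 3, 13.4 and 16.9 in replicates 1 and 2 of the libraries labelled K238R and 9.67 in ET replicate 3, against 0.76 to 7.01 in the other 8. Pvalb was thus highest in 4 libraries in which the adult heavy chains were the larger part. It did not follow that part throughout, since the K412R libraries, with adult shares of 80.9%, 86.6% and 91.9%, had 2.84, 7.01 and 4.72 CPM. The part of host muscle in these values was not tested.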

How the data were processed

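RNA of 12 teratomas was sequenced, with 3 libraries in each of the groups ET, WT, K238R and K412R, taken from the sample titles. The authors deposited an estimated count per gene and library, without normalization, as whole numbers, and the largest values are written to 6 digits only. The submitters' processing notes name GATK, fastp, STAR, Salmon and GRCm39, and the gene annotation is not given in the sources used here. Salmon divides reads shared by similar genes, which can affect the myosin heavy chains.

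Counts were scaled by TMM and fitted with edgeR 4.0.16 (glmQLFit with robust estimation, R 4.3.3) with 1 mean per group over all 12 libraries and the 18405 genes that passed filterByExpr, and p-values were adjusted by Benjamini-Hochberg over all of them. DESeq2, the tool of the study, was an alternative and was run here as version 1.42.0. Other alternatives were DESeq2 size factors, no filter, the 2 groups alone, the replicate number as a block, Gm26917 removed and each library left out. Calls were made at an adjusted p under 0.05 or at 2-fold and an unadjusted p under 0.05. The latter follows the thresholds of the study, which does not say whether its p was adjusted. CPM used the library total, log2 levels a pseudocount of 0.5, and CPM per kilobase the longest coding transcript of each gene in the reference. Replicate numbers were not treated as a pairing in the main fit.

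The members, their classes, the marker lists and the other pathway genes were chosen with earlier results of these data known. Values in every library were given for 25 members fixed by name, the other members by range, and of the other pathway genes the 3 lowest and 3 highest in WT against ET were named. Pax3, Pax7, Myh7, Actc1, Tnnt2 and Pvalb were named after their values were seen.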

Additional observations from a re-analysis of the deposited data

How the results depend on the processing

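The positive median of the members in WT against ET (1.44 to 2.38 with each library left out) and the negative medians of the libraries labelled K238R (-2.08 to -1.03) and of K412R (-2.64 to -1.76) against WT kept their sign in all alternatives run, while against ET the median of the libraries labelled K238R ran from -0.19 to 0.84 and that of K412R from -0.54 to -0.01. The counts of calls varied more. The shares of all genes called were not computed outside the main fit, apart from DESeq2 at the adjusted threshold. By the 2-fold criterion WT against ET gave 10 members, 17 with DESeq2, 5 without the filter, 23 with the 2 groups alone and 1 to 26 with each library left out. The libraries labelled K238R against WT gave 11, 4 without the filter, 3 with the 2 groups alone and 1 to 23 with each library left out, and K412R against WT gave 23 and 10 to 32. Against ET, the libraries labelled K238R gave 0 to 9 and K412R gave 3 with DESeq2, 2 without the filter, 9 with the 2 groups alone and 0 to 5. At the adjusted threshold WT against ET gave 0 to 2 with each library left out and 5 without ET replicate 2 and WT replicate 1 together. The libraries labelled K238R against WT gave 1 with DESeq2 and 1 without that pair, and K412R against WT gave 9 with DESeq2, 4 with the 2 groups alone, 7 without that pair and 0 to 7 with each library left out. Same-numbered libraries did not deviate together as a rule (correlations over 500 genes from -0.47 to 0.41, 6 of 18 over 0.1). Replicates 2 of ET, WT and the libraries labelled K238R had correlations of 0.28, 0.33 and 0.41 with each other. Pairs with unlike numbers reached further in both directions. WT replicate 1 was at 0.56 with replicate 3 and at -0.56 with replicate 2 of the libraries labelled K238R. Deviations from group means of 3 libraries cannot exclude a pairing, so the replicate number was also run as a block. With the replicate number as a block the 2-fold count of K412R against WT was 15, Myh1, Myh4 and Mybpc2 turned positive in the libraries labelled K238R against WT (0.60, 1.26 and 0.71), Xirp2 turned negative in K412R against WT (-0.034), and the block changed no other call by this measure. Without ET replicate 2 and WT replicate 1 Xirp2 was at -0.45 and -0.52 against WT. With each library left out, the log2 fold changes of WT against ET, of the libraries labelled K238R against WT and of K412R against WT ran from -0.15 to 3.67, -1.12 to 2.28 and -1.71 to 1.70 for Myh1, from -1.18 to 3.16, -1.16 to 2.84 and -1.51 to 2.03 for Myh4 and from -0.28 to 3.92, -1.51 to 2.46 and -1.69 to 1.68 for Mybpc2, and the last 2 from -1.52 to 0.30 and -1.44 to 0.13 for Actn3 and from -1.61 to 1.68 and -0.52 to 1.61 for Xirp2. WT replicate 3 was the library whose removal turned Myh1, Myh4 and Mybpc2 in WT against ET. Of 2292 recomputed values of single members, 27 reversed, in 5 genes, 38 passed the adjusted threshold newly and 2227 did neither. The causes were not tested. Depth limited Myf5, Mymx and Chrng, which rested on few counts in K412R. Among other members with few counts there were Myod1 (14, 4 and 6 counts in K412R), Myog (29, 4 and 10), Chrnd (20, 2 and 7) and Mymk (31, 6 and 19).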
